A study of Mus musculus with 4 samples.

Results

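Among 15349 nuclei in 4 single-cell ATAC-Seq (scATAC-Seq) libraries of mouse hepatocyte preparations, 472 nuclei carried open chromatin at endothelial marker genes with little at hepatocyte genes. These nuclei, called members here, were chosen by a rule on gene counts. A gene count is the sum of a nucleus's counts in peaks over the gene body plus 2 kb upstream, on mm10. Nuclei needed at least 1000 counts in peaks, and the summed counts of 10 hepatocyte markers (Alb, Apoa1, Apob, Ttr, Hnf4a, Tat, Cps1, Cyp2e1, Serpina1a and Fgb) had to stay under 0.2% of the nucleus's total. The summed counts of 12 endothelial markers (Stab2, Kdr, Pecam1, Egfl7, Sox17, Tie1, Tek, Cdh5, Flt1, Ehd3, Eng and Ptprb) had to reach at least 4. That sum also had to exceed both the sum over 5 immune markers (Csf1r, Ptprc, Spi1, Cd5l and Laptm5) and the sum over 5 stellate markers (Pdgfrb, Lrat, Reln, Des and Col1a2). By the same sums 13493 nuclei were hepatocyte nuclei, with the hepatocyte sum at or above the limit and above each other sum. A further 69 were immune and 22 stellate nuclei, while 1293 nuclei met no rule.

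All libraries came from adult male C57BL/6J mice aged 10 to 12 weeks by the labels and kept on normal diet. Hepatocytes were isolated by 2-step collagenase perfusion, and their nuclei were taken for the assay. PHx is partial hepatectomy, the surgical removal of most of the liver mass, and the libraries stand for mice without surgery (PHx 0 h) and for 48, 72 and 96 h after PHx. Each time point had 1 library, so a difference between time points cannot be told apart from a difference between libraries, and no test between them was possible. The 0 and 48 h libraries each came from 1 hepatocyte preparation, and no source used here says whether the others pooled animals. Exact Poisson and Clopper-Pearson binomial 95% intervals are given below, and they cover counting error only.

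Liver sinusoidal endothelial cells line the capillaries between plates of hepatocytes. They lack a continuous basement membrane, carry open pores, and take up waste molecules from blood through scavenger receptors such as stabilins. After PHx, endothelial cells are known to supply hepatocytes with secreted growth signals, called angiocrine factors, and they themselves divide later than hepatocytes do. In a hepatocyte preparation they are carry-over.

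The rule picked 139 of 3977 nuclei at 0 h, 81 of 3892 at 48 h, 236 of 4256 at 72 h and 16 of 3224 at 96 h. These are shares of 3.50% (95% interval 2.95-4.11), 2.08% (1.66-2.58), 5.55% (4.88-6.28) and 0.496% (0.284-0.805). The libraries differed in depth, with totals of 136949314, 62553202, 25540258 and 15809769 counts in peaks. Hepatocyte nuclei had a median of 28863.5, 12819, 5452 and 4000 counts, while members had 4374, 2428, 4091 and 3620.5. At 0 h a member thus carried far fewer counts than a hepatocyte nucleus, and at 96 h the medians were close. Among the deposited barcodes, 638 occurred in all 4 libraries, 152 in 3 and 376 in 2, and 11 members had a barcode found in another library (5, 1, 3 and 2 by time). Without all such barcodes the shares of members were 4.32%, 2.19%, 5.64% and 0.451%. The shares turned on the rule: at least 8 marker counts gave 1.73%, 0.899%, 1.67% and 0.031%, and nuclei thinned to 1000 counts 0.704%, 0.668%, 0.893% and 0.031%.

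The values that chose the members were small. The median endothelial marker sum was 7, 6, 6 and 4 counts at 0, 48, 72 and 96 h, with maxima of 34, 41, 23 and 9, and a median of 2 of the 12 markers had any count. No hepatocyte marker count was seen in 46, 38, 58 and 2 members. Just inside the threshold, 32, 23, 90 and 11 members had exactly 4 endothelial counts, and just outside it 60, 59, 174 and 58 nuclei had 2 or 3 counts and met the other limits. Between 0.15% and 0.2% hepatocyte marker counts lay 14, 14, 89 and 7 members, and between 0.2% and 0.25% lay 26, 32, 113 and 4 nuclei that met the endothelial limit. Hepatocyte nuclei, which should lack these genes' activity, had endothelial marker counts too, in 91.3%, 84.1%, 73.3% and 49.5% of them at their greater depth. With every nucleus thinned to 1000 counts this share was 33.8%, 32.3%, 38.4% and 22.9%, against 77.0%, 90.1%, 76.3% and 100% of members. The thinned mean was 2.11, 2.89, 2.01 and 1.88 endothelial marker counts in members and 0.446, 0.419, 0.538 and 0.312 in hepatocyte nuclei, a difference that the rule itself set.

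To check the endothelial label with data that the rule did not use, all nuclei were clustered on 62772 regions that lay outside the genes of the rule. Of 8 clusters, 6 were led by hepatocyte nuclei and also held 196 members. Another, with 599 nuclei, was led by Ehd3 (94.3 CPM, where CPM are counts scaled to a common total of counts in peaks, against 4.38 in hepatocyte nuclei), an endocytic recycling protein of endothelium. Ehd3 is a marker of the rule, so its level is no independent support, although its own regions did not enter the clustering. Lfng, a modifier of Notch receptors, Gja1, a gap junction protein, and Hlx, a homeobox factor, also led it, though Lfng ranked 14 in the second cluster described next and 8 among members in hepatocyte clusters. It is called endothelial-like here, since 27, 29, 23 and 17 of 52 endothelial genes outside the rule were at least 2-fold higher in it than in hepatocyte nuclei at 0, 48, 72 and 96 h, beside 17.5%, 17.4%, 12.2% and 25.7% of all genes. At 96 h the median log2 ratio of these 52 genes was 0.20 and that of all genes 0.29, so the name rests on the other 3 libraries. It held 99 of 139 members at 0 h, 58 of 81 at 48 h, 70 of 236 at 72 h and 2 of 16 at 96 h, so that 71.2%, 71.6%, 29.7% and 12.5% of the members fell in it. Hepatocyte clusters held 11, 14, 157 and 14 members. The remaining cluster, with 279 nuclei, held 29, 9, 9 and 0 members. Its leading genes mixed Clec1b and Itga9 with Sdc3, Cotl1, Rgs1 and Lrrc25, and Clec4f, a Kupffer cell lectin, ranked 12. It held 10 of 11, 30 of 32, 10 of 25 and 1 of 1 nuclei that met the immune rule. It is left unnamed and called the second cluster. A finer clustering put 99, 58, 71 and 2 members in the endothelial-like cluster, and clustering of thinned nuclei put 128, 67, 83 and 2 there.

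**Figure D1:**
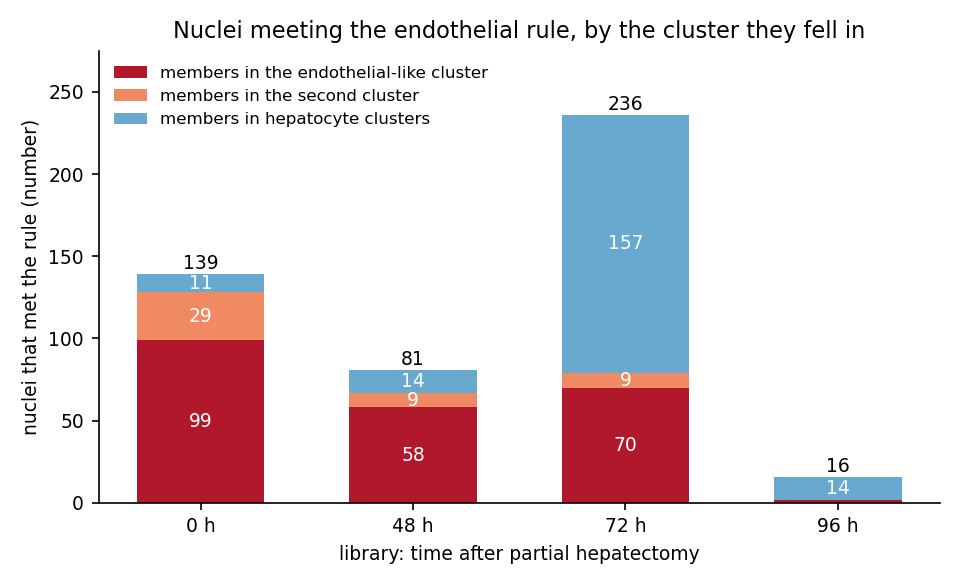
Number of nuclei that met the endothelial rule in each library, coloured by the cluster they fell in on regions outside the rule's genes. At 0 and 48 h most members (99 of 139 and 58 of 81) sat in the endothelial-like cluster, at 72 h most (157 of 236) sat in hepatocyte clusters, and at 96 h only 2 of 16 were endothelial-like.

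The data therefore went against the endothelial label for most members at 72 and 96 h. The nearest neighbours of members showed the same split: of the 15 nuclei most like a member, 55.4%, 46.9%, 21.4% and 8.33% were members and 9.59%, 15.6%, 52.4% and 71.7% were hepatocyte nuclei, where members were 3.08% of all nuclei. Depth moved with this split, since members in hepatocyte clusters at 72 h had a median of 6079 counts and those in the endothelial-like cluster 1655, and its part in the result was not tested. The number of members at a time point can thus not be read as a number of endothelial nuclei.

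Genes outside the rule gave the same separation. A list of 52 endothelial genes (13 of sinusoidal identity, 17 transcription factors and 22 surface proteins) summed to 4979 (4689-5282) CPM at 0 h, 6239 (5692-6825) at 48 h and 5575 (5021-6173) at 72 h in members of the endothelial-like cluster, with 95% intervals in parentheses. Hepatocyte nuclei had 1849, 2113, 2242 and 1971 CPM at 0, 48, 72 and 96 h. Members in hepatocyte clusters had 2152, 2268, 2368 and 2091 CPM, close to hepatocyte nuclei in each library. The 2 endothelial-like members at 96 h held only 3041 counts in all, so this group is described for 0, 48 and 72 h. These genes took part in the clustering but not in the rule.

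In these members 1 fragment, counted as 2, was worth 4.54, 13.1 and 15.1 CPM at 0, 48 and 72 h. Of the 52 genes, 32, 35 and 30 exceeded hepatocyte nuclei of the same library at least 2-fold at 0, 48 and 72 h, on a log2(CPM + 5) scale. Over all genes with a mean of at least 10 CPM, a minimum that was not set for the genes of a list, the shares at least 2-fold higher were 21.1%, 23.2% and 19.1%. With that minimum 32, 34 and 29 of the 52 were. Lower by the same fold were 0, 4 and 7 of them, against 15.6%, 16.6% and 16% of all genes. The median log2 ratio of the list was 1.35, 1.55 and 1.11, beside 0.35, 0.26 and 0.22 for all genes. Genes with no peak count as a ratio of 0, and 45, 48 and 47 of the 52 reached a mean of 10 CPM. Over all members, including those in hepatocyte clusters, 21, 20, 0 and 1 of the 52 genes were 2-fold higher at 0, 48, 72 and 96 h, where the shares over all genes were 13.6%, 11.2%, 0.365% and 19.6%. At least 2-fold lower in all members were 1, 3, 0 and 20 of the 52, against 10.2%, 7.93%, 0.516% and 24.7% of all genes.

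Hepatocyte genes outside the rule went the other way. A list of 10 of them summed to 426, 392 and 483 CPM in the endothelial-like members at 0, 48 and 72 h and to 2755, 2139 and 1611 CPM in hepatocyte nuclei. Ahsg, which encodes the plasma protein fetuin-A, had 18.1, 26.2 and 45.3 CPM against 566, 401 and 273, and Pck1, an enzyme of glucose synthesis, 40.8, 0 and 60.3 against 751, 480.3 and 336. Members in hepatocyte clusters had 2405, 1666, 1379 and 2109 CPM at the 4 times, near the 2755, 2139, 1611 and 2399 of hepatocyte nuclei. Members in the second cluster had 587, 716 and 707 CPM of the hepatocyte list and 2270.1, 2316 and 2939 CPM of the endothelial list at 0, 48 and 72 h, so they were low in hepatocyte genes with little gain at endothelial genes.

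**Figure D2:**
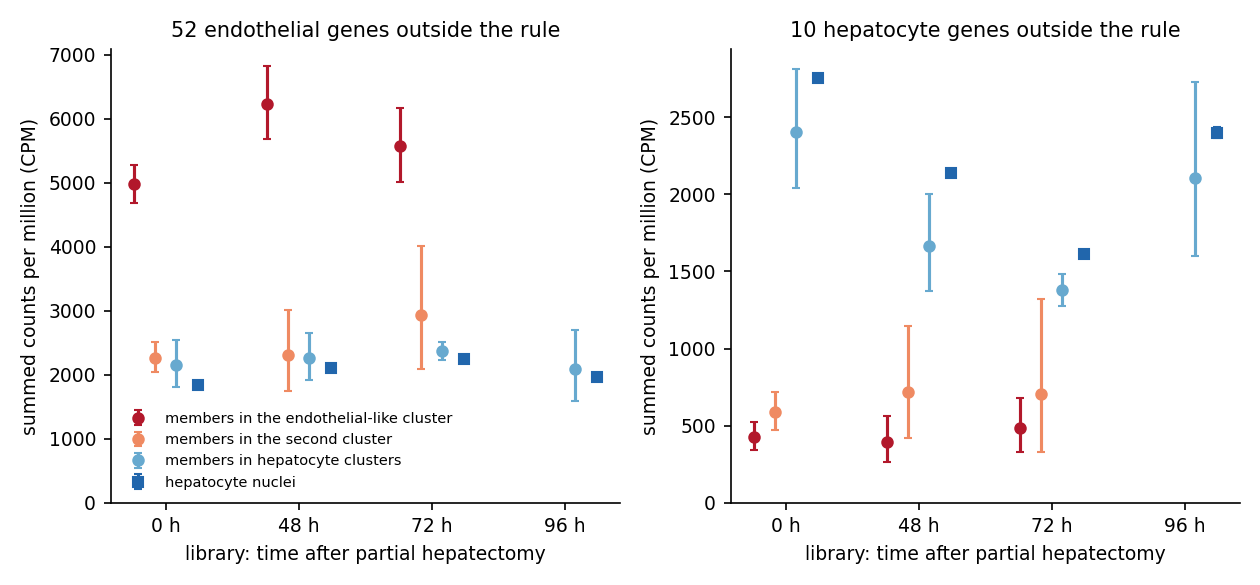
Summed CPM of 52 endothelial genes (left) and 10 hepatocyte genes (right) outside the rule, by library. Points are sums over the nuclei of a group in 1 library and bars are exact Poisson 95% intervals, with no bar visible where it is shorter than the marker. Members of the endothelial-like cluster (4979, 6239 and 5575 CPM, left) stand above hepatocyte nuclei (1849, 2113 and 2242), while members in hepatocyte clusters lie near hepatocyte nuclei in both panels.

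Markers of other liver cells were also read in the endothelial-like members. The 5 immune markers of the rule summed to 97.5, 91.6 and 166 CPM at 0, 48 and 72 h, against 70.0, 126 and 132 in hepatocyte nuclei, and the 5 stellate markers to 68.0, 91.6 and 151 against 60.1, 96.1 and 128. The rule had required both sums to stay below the endothelial sum in each member, so these levels are no independent reading. Cd5l, Laptm5 and Des were at 0 in these members and had no peak or a very short one in each library. The other list of immune genes (10) summed to 415, 582 and 543 against 379, 425 and 429.6 CPM, most of it at Cx3cr1, which had 397, 438 and 445 CPM in members and 363, 340.3 and 378 in hepatocyte nuclei. The window of Cx3cr1 also covers Wdr48, Gorasp1, Ttc21a, Csrnp1 and Xirp1, so its counts cannot be assigned to Cx3cr1. Ncf1, a subunit of the phagocyte oxidase, was higher in members at 48 and 72 h, with 0, 52.3 and 60.3 against 3.59, 5.75 and 11.6 CPM, from a window that also covers Gtf2ird2. Ikzf1, a lymphoid factor, was at 0, as were the Kupffer cell genes Vsig4 and Adgre1, which had almost no peak. The other list of stellate genes (10) summed to 243, 216 and 332 against 95.05, 171 and 222 CPM. Pdgfra, a growth factor receptor of mesenchymal cells, had 136, 91.6 and 45.3 CPM in members and 36.8, 40.3 and 49.0 in hepatocyte nuclei, so it was above the hepatocyte level at 0 and 48 h. Of the immune list 0, 1 and 2 genes and of the stellate list 2, 2 and 4 exceeded hepatocyte nuclei at least 2-fold, where 21.1%, 23.2% and 19.1% of all genes did, and their part in the endothelial values was not tested. Cholangiocyte genes (7) summed to 47.6, 26.2 and 60.3 against 158, 128 and 141 CPM, with the biliary factor Sox9 at 0 in members.

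The peaks limit what can be seen. They were called in each library on its own, where hepatocyte nuclei dominate, and 22, 27, 30 and 16 of the 52 endothelial genes had a start site in a peak at 0, 48, 72 and 96 h. Over protein-coding genes the shares were 59.4%, 62.8%, 62.0% and 54.2%, and all 10 hepatocyte genes outside the rule had one. Cdh5, the junction protein VE-cadherin, had no peak at 0 or 96 h, and Cd34 had one only at 72 h. A gene with no peak is not measured, and its 0 says nothing of its chromatin.

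The regions of the 12 markers of the rule were left out of the clustering, so the markers are described here in all 599 nuclei of the endothelial-like cluster. The rule still bears on these values, since it chose the members among these nuclei and the hepatocyte nuclei they are set beside. In the cluster the markers summed to 1324 (1212-1443) CPM in 205 nuclei at 0 h, 2058 (1837-2297) in 139 at 48 h, 2003 (1802-2219) in 199 at 72 h and 499.9 (301-781) in 56 at 96 h. Hepatocyte nuclei had 432, 444, 537 and 307 CPM. Of the 12 markers, 9, 10, 11 and 5 exceeded hepatocyte nuclei at least 2-fold, against 17.5%, 17.4%, 12.2% and 25.7% of all genes tested, and 0, 0, 0 and 3 were 2-fold lower, against 13%, 12.3%, 9.64% and 20%. The cluster made up 5.15% (4.49-5.89), 3.57% (3.01-4.20), 4.68% (4.06-5.35) and 1.74% (1.31-2.25) of nuclei. Its median depth was 2645, 1549, 1476 and 1250 counts, and 106, 81, 129 and 54 of its nuclei had missed the rule. In the latter the 12 markers summed to 448 (353-561), 773 (590.05-995), 859 (698-1046) and 384 (209.8-644) CPM, with intervals that hold the level of hepatocyte nuclei at 0 and 96 h. A sum under 4 was itself a way to miss the rule, so these levels were partly set by it. The 52 endothelial genes outside the rule summed to 3891, 4072, 4378 and 3303 CPM in the same nuclei, against 1849, 2113, 2242 and 1971 in hepatocyte nuclei.

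Single markers differed in how sharply they set these nuclei apart. Ehd3 had 89.7, 90.9, 116 and 52.6 CPM in the cluster at 0, 48, 72 and 96 h and 2.60, 5.24, 8.99 and 10.5 in hepatocyte nuclei. Pecam1, the adhesion molecule CD31, had 160.2, 191, 99.2 and 39.5 against 40.5, 36.4, 43.9 and 22.5 CPM, from a window that also covers Milr1. Eng, a co-receptor for transforming growth factor beta, had 224, 253, 146 and 78.9 against 49.3, 39.1, 47.7 and 28.3 CPM, and its window also covers Fpgs. At 0, 48 and 72 h all 3 were higher in the cluster with intervals apart from those of hepatocyte nuclei. Sox17, a factor of arterial and sinusoidal endothelium, had 93.6, 77.9, 93.7 and 65.8 against 10.2, 19.8, 22.4 and 25.5 CPM. Tie1, an orphan receptor of the angiopoietin system, had 78.2, 61.7, 46.8 and 0 against 20.8, 18.4, 20.8 and 22.4 CPM. Egfl7, a secreted protein of vessel walls whose gene hosts the endothelial microRNA miR-126a, had 472, 867, 729.97 and 158 against 160.3, 156, 179 and 45.2 CPM, and its window also covers part of Agpat2. Stab2, the hyaluronan scavenger receptor of sinusoids, had 80.8, 227, 190.1 and 26.3 against 107, 112, 110.3 and 80.9 CPM and was not above hepatocyte nuclei at 0 and 96 h. Flt1, the decoy receptor for vascular endothelial growth factor (VEGF), had 47.4, 38.9 and 79.9 CPM at 0, 48 and 72 h, against 17.1, 19.1 and 30.9. Ptprb, a vascular phosphatase, had 33.3, 68.2 and 168 against 11.7, 15.4 and 33.9 CPM. Windows of other named genes hold further genes too, such as Ptprr in that of Ptprb, Gtpbp3 in that of Plvap and Mcph1 in that of Angpt2. At 96 h 1 fragment was worth 26.3 CPM in this cluster, so most of its values there rest on a few fragments. On mm10 Ehd3 lies at chr17:73804134-73832094, Kdr at chr5:75932827-75978458, Stab2 at chr10:86841198-87008025 and Klf4, a factor described below, at chr4:55527143-55532466.

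The 13 genes of sinusoidal identity summed to 1173, 1439 and 898 CPM in the endothelial-like members at 0, 48 and 72 h and 379.8, 414 and 408 in hepatocyte nuclei, and 10, 10 and 7 of them were at least 2-fold higher and 0, 1 and 2 lower, where 21.1%, 23.2% and 19.1% of all genes were higher and 15.6%, 16.6% and 16% lower. Dnase1l3, a secreted DNase, had 120.2, 177 and 128 CPM against 25.6, 25.2 and 23.2 and was at least 2-fold higher in each of the 3 libraries. Clec4g, a lectin of sinusoidal cells, had 45.4, 45.8 and 45.3 against 4.04, 4.66 and 5.40 CPM, where the members' values at 48 and 72 h rest on a few fragments. Gata4, the factor that directs sinusoidal fate, had 401, 419 and 347 against 133, 129.9 and 114 CPM. Stab1, the second scavenger stabilin, had 68.0, 249 and 67.9 against 21.7, 42.6 and 28.3 CPM, and its peaks covered 14458 bp at 48 h but 5594 and 6166 bp at 0 and 72 h. Clec1b, a lectin receptor, had 38.6, 58.9 and 15.1 against 1.78, 2.66 and 2.67 CPM. It was also a leading gene of the second cluster, where it ranked 4 with 66.0 CPM over all libraries. Oit3 had 77.1, 124 and 37.7 against 24.1, 28.0 and 20.9 CPM. Fcgr2b, the inhibitory Fc receptor that clears immune complexes, had 111, 105 and 15.1 against 22.1, 27.7 and 26.7 CPM and was the higher one only at 0 and 48 h. F8, the gene for clotting factor VIII, had 29.5, 26.2 and 0 against 7.15, 6.47 and 5.44 CPM, the last from 0 counts, which allows up to 55.7 CPM. Lyve1, the hyaluronan receptor used as a sinusoidal marker, did not stand out: 25.0, 0 and 15.1 against 16.1, 14.1 and 13.0 CPM with wide intervals. Cd36, a fatty acid scavenger receptor that hepatocytes also carry, had 18.1, 105 and 15.1 against 36.7, 49.7 and 52.7 CPM. Fcgr2b and F8 exceeded hepatocyte nuclei at least 2-fold at 0 and 48 h and lay below them at 72 h, where these values rest on at most 1 fragment.

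Of 17 endothelial transcription factors, 12, 11 and 9 were at least 2-fold higher (21.1%, 23.2% and 19.1% of all genes) and 0, 1 and 3 lower (15.6%, 16.6% and 16%), and the list summed to 1606, 1949 and 1954 CPM against 520.3, 647 and 822. The ETS family, whose members bind GGAA motifs and drive most endothelial genes, was represented by Ets1, Elk3, Erg and Fli1. Ets1 had 168, 235 and 355 against 68.4, 85.7 and 98.3 CPM and Elk3 202, 281 and 234 against 41.2, 58.9 and 79.8, higher than hepatocyte nuclei in each of the 3 libraries. Erg had 54.4, 52.3 and 189 against 18.4, 27.4 and 55.4 CPM. Fli1 had 4.54, 78.5 and 151 against 1.86, 11.0 and 27.1 CPM from peaks that covered 657, 4162 and 8080 bp, so its levels at the 3 times do not compare the same sequence. Klf2, which responds to shear stress, had 154, 71.9 and 121 against 33.6, 34.1 and 36.2 CPM. Klf4, which responds to it as well, had 147, 39.2 and 136 against 17.4, 29.98 and 38.0 CPM, and both were nearest to hepatocyte nuclei at 48 h. Bcl6b, a repressor of vascular endothelium, had 70.3, 52.3 and 30.2 against 9.78, 10.1 and 7.01 CPM. Mef2c, a factor of vessels and muscle, had 29.5, 32.7 and 30.2 against 2.63, 5.53 and 9.59 CPM and Tal1, a blood and vessel factor, 70.3, 203 and 45.3 against 11.2, 27.6 and 33.1. Nr2f2, the venous factor COUP-TFII that hepatocytes also use, had 157, 307 and 30.2 against 98.8, 76.7 and 78.2 CPM. Meox2, a homeobox factor, was at 0 counts in the endothelial-like members of all 3 libraries. Foxf1, a forkhead factor of mesenchyme and vessels, had 52.2, 39.2 and 0 against 4.55, 11.4 and 22.2 CPM.

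Of 22 surface receptors and junction proteins, 10, 14 and 14 were at least 2-fold higher (21.1%, 23.2% and 19.1% of all genes) and 0, 2 and 2 lower (15.6%, 16.6% and 16%), with a sum of 2200.3, 2851 and 2723 CPM against 949, 1051 and 1012. Plxnd1, a semaphorin receptor, had 220.03, 314 and 347 against 28.9, 51.1 and 75.3 CPM. Esam, an adhesion molecule of endothelial junctions, had 138, 288 and 204 against 34.8, 42.0 and 43.8 CPM from peaks of 4568, 5110 and 3583 bp. Notch1, the receptor for Dll4, had 358, 353 and 309 against 135, 105 and 118 CPM. Plvap, which builds the diaphragms of endothelial pores, had 149.7, 85.0 and 151 against 17.5, 25.7 and 28.6 CPM. Cd93, a lectin of endothelium, had 25.0, 32.7 and 90.5 against 0.126, 1.22 and 2.86 CPM from peaks of 165, 497 and 716 bp. Calcrl, the adrenomedullin receptor, had 97.5, 111 and 106 against 27.2, 34.8 and 40.9 CPM. Nrp1, a VEGF co-receptor with wide peaks in both cell types, had 460.5, 667 and 483 against 248, 311 and 223 CPM. Claudin 5 (Cldn5) had 45.4, 65.4 and 15.1 against 5.40, 7.57 and 12.5 CPM, near the hepatocyte level at 72 h only. Clec14a and Ecscr had no peak at 0 h, and Mmrn2, Nos3 and Acvrl1 were on both sides of the hepatocyte level depending on the library.

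Of 18 angiocrine genes, 8, 10 and 6 were at least 2-fold higher at 0, 48 and 72 h and 1, 2 and 3 at least 2-fold lower, beside 21.1%, 23.2% and 19.1% higher and 15.6%, 16.6% and 16% lower over all genes. Bmp2, which signals iron status to hepatocytes, had 125, 124 and 121 against 10.1, 17.1 and 26.8 CPM. Bmp6, its partner in that signal, had 141, 137 and 67.9 against 53.5, 76.8 and 60.3 CPM, with a ratio nearer to 1 at 48 and 72 h. Id3, a target of BMP signals, had 489.95, 379 and 241 against 117, 129 and 81.7 CPM, and Id1, long linked to endothelial support of regeneration, 122, 274.68 and 121 against 76.3, 84.7 and 86.3. Tgfb1 had 129, 183 and 151 against 42.7, 44.1 and 42.1 CPM. Ccn2, a matricellular growth factor, had 61.2, 13.1 and 30.2 against 2.82, 8.54 and 15.03 CPM. Angpt2, an antagonist of the Tek receptor, had 18.1, 0 and 0 against 63.5, 72.6 and 51.3 CPM, and Cxcl12, a chemokine, 127, 13.1 and 60.3 against 207, 217 and 196. Both had lower values in the members, but a count of 0 at 72 h allows up to 55.7 CPM, so Angpt2 is not set apart there. Hgf, which encodes hepatocyte growth factor, had no peak at 0 h and 32.7 CPM (95% interval 5.44 to 105) at 48 h, from 390 bp of peaks. The Wnt ligand Wnt2 also had no peak at 0 h.

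**Figure D3:**
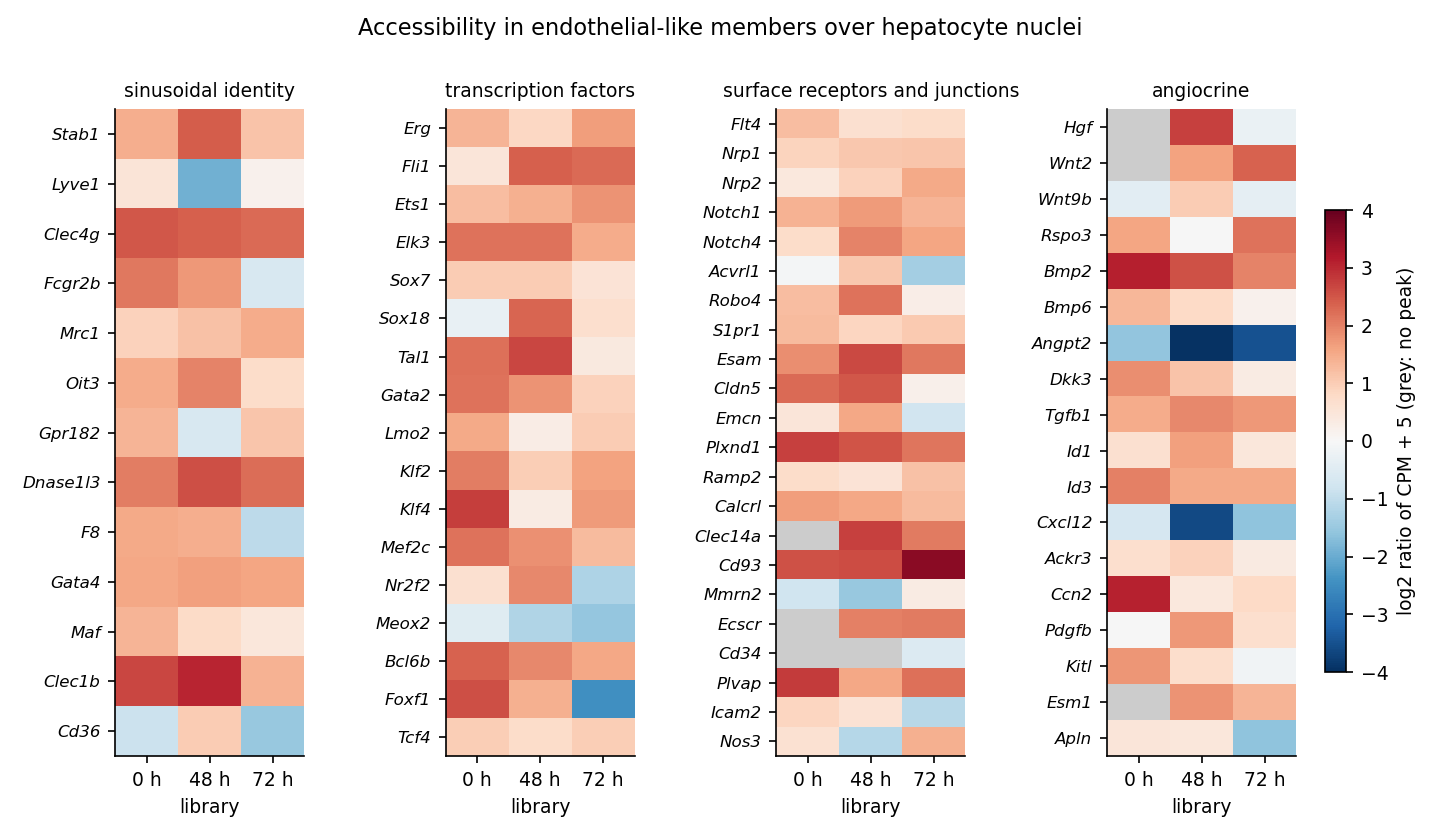
Log2 ratio of (CPM + 5) in members of the endothelial-like cluster over hepatocyte nuclei of the same library, 1 row per gene and 1 column per library (99, 58 and 70 members at 0, 48 and 72 h). Red is higher and blue lower in members, and grey marks genes with no peak. Most sinusoidal, factor and surface genes are red in each column (32, 35 and 30 of 52 at least 2-fold), while in the angiocrine panel 8, 10 and 6 of 18 are, with Bmp2 at 3.11, 2.55 and 1.98 and Angpt2 at -1.57, -3.96 and -3.49, the last 2 from 0 counts in members.

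Genes that mark vessel position were also read. Pericentral endothelial genes (7) summed to 152, 412 and 453 CPM at 0, 48 and 72 h against 57.3, 80.1 and 115 in hepatocyte nuclei, with 2, 6 and 6 of them at least 2-fold higher, beside 21.1%, 23.2% and 19.1% of all genes. Thbd, the anticoagulant receptor thrombomodulin, had 95.3, 183 and 98.1 against 5.02, 12.6 and 21.3 CPM. Kit, a receptor of pericentral sinusoids, had 0, 45.8 and 75.4 against 0.504, 3.32 and 4.29 CPM, and Rspo3, a Wnt amplifier of central vein endothelium, 20.4, 13.1 and 90.5 against 3.48, 13.2 and 16.2. Periportal endothelial genes (7) summed to 519, 464 and 460.1 against 151, 204 and 256 CPM, with 4, 4 and 4 of them 2-fold higher, beside the same shares of all genes (21.1%, 23.2% and 19.1%). The Notch ligand Dll4 had 118, 124 and 181 against 7.78, 31.8 and 60.6 CPM, Ntn4, a netrin of basement membranes, 104, 78.5 and 90.5 against 15.2, 24.9 and 30.1 and Efnb2, an arterial ephrin, 93.0, 124 and 60.3 against 36.5, 49.1 and 55.8. Both lists thus held genes above the hepatocyte level in the summed members, though only 2 of the 7 pericentral genes were 2-fold higher at 0 h. No single nucleus was placed along the sinusoid, and endothelium of veins or arteries was not told apart from it.

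Large vessel genes (11) summed to 935, 1039.8 and 815 against 373, 421 and 509 CPM, with 5, 5 and 2 at least 2-fold higher, where 21.1%, 23.2% and 19.1% of all genes were. Vwf, the clotting protein of larger vessels, had 83.9, 118 and 121 against 54.3, 83.1 and 93.9 CPM, a ratio under 2 in each library. Ephb4, a venous receptor, had 236, 222 and 121 against 67.5, 40.9 and 46.8 CPM, Podxl, a sialomucin, 197, 249 and 166 against 50.05, 74.99 and 75.6 and Gja4, an arterial connexin, 79.4, 26.2 and 15.1 against 4.01, 6.404 and 12.5. Of the lymphatic genes, Pdpn was at 0 in members and Prox1, which hepatocytes use as well, was lower in members, with 77.1, 131 and 75.4 against 304, 368 and 383 CPM. Ly6c1 was at 0 in these members at 0, 48 and 72 h.

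Against immune nuclei of the same library, the 52 endothelial genes summed to more in the endothelial-like members. The log2 ratio of the sums was 0.88 (95% interval 0.62 to 1.14) at 0 h against 11 immune nuclei, 1.26 (1.05 to 1.47) at 48 h against 32 and 0.96 (0.68 to 1.24) at 72 h against 25. Against 5, 3 and 12 stellate nuclei it was 1.11 (0.73 to 1.52), 1.29 (0.70 to 1.94) and 1.43 (1.09 to 1.78). All members together gave 0.40 (0.15 to 0.67), 0.64 (0.45 to 0.84) and -0.07 (-0.31 to 0.18) against immune nuclei, so the interval at 72 h spans 0. The endothelial-like members were limited by cluster as well as by the rule, and the 52 genes took part in the clustering. Immune and stellate nuclei had no such limit, and 10 of 25 immune nuclei at 72 h fell in the second cluster. Over all genes tested, 21.3%, 20.4% and 26.1% were at least 2-fold higher in the endothelial-like members than in immune nuclei, and 26, 31 and 22 of the 52 genes were. Lower by the same fold were 21.2%, 19.4% and 21.3% of all genes.

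For the time after PHx, all nuclei of the endothelial-like cluster were compared with those at 0 h, since that cluster was built without the genes of the rule. All 3 comparisons share the 0 h library. Genes without a peak at both times were left out of these counts, since no fold can be given for them. Between 0 and 48 h, 7.38% of genes tested were at least 2-fold higher and 9.22% at least 2-fold lower after the change in hepatocyte nuclei was subtracted. At 72 h these shares were 8.12% and 11.2%, and at 96 h, with 76012 counts in all, 17.7% and 23.2%. Of the 52 endothelial genes outside the rule, 49, 49 and 46 had a peak at 0 h and at 48, 72 and 96 h. Among these 4 were higher and 6 lower at 48 h, 2 and 10 at 72 h and 2 and 20 at 96 h. The class compared also changed, since 99 of 205, 58 of 139, 70 of 199 and 2 of 56 nuclei of the cluster were members at 0, 48, 72 and 96 h, and the part of this in the counts was not tested. In all members the shares over all genes were 7.12% higher and 10.6% lower at 48 h, 9.32% and 12.8% at 72 h and 18.5% and 32.7% at 96 h, and in the endothelial-like members 13% and 15.7% at 48 h and 14.3% and 20.2% at 72 h. Of the same genes, all members had 2 higher and 7 lower, 1 higher and 18 lower and 0 higher and 26 lower at these times, and the endothelial-like members 7 higher and 8 lower and 4 higher and 13 lower at 48 and 72 h. The sum over the 52 genes in the cluster was 4506, 5148, 4815 and 3328 CPM at 0, 48, 72 and 96 h.

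Genes of the endothelial lists differed in both directions. Stab2 had 80.8 CPM (95% interval 55.1 to 114) at 0 h, 227 CPM (95% interval 158 to 316) at 48 h and 190.1 CPM (95% interval 132 to 265) at 72 h, from peaks of 18201, 22139 and 18933 bp, while hepatocyte nuclei stayed at 107, 112 and 110.3 CPM. Kdr, the main VEGF receptor, had 34.6 CPM (95% interval 18.7 to 58.6), 120.1 CPM (95% interval 71.7 to 189) and 124 CPM (95% interval 78.1 to 187), from peaks of 1908, 3176 and 3724 bp, and hepatocyte nuclei 8.06, 13.7 and 17.4 CPM. Both genes were thus higher at 48 and 72 h than at 0 h with intervals apart, and both over longer peaks than at 0 h. Klf4 went the other way, from 174 CPM (95% interval 135 to 221) to 68.2 CPM (95% interval 33.4 to 124) at 48 h, with peaks of 4203 and 4829 bp and hepatocyte nuclei at 17.4 and 29.98 CPM. Klf4 at 72 and 96 h was at 93.7 and 184 CPM. Klf2 had 139.7, 87.6, 127 and 0 CPM at the 4 times, the last from 0 counts, which allows up to 97.1 CPM. Tek, the angiopoietin receptor, had 10.3 CPM (95% interval 2.79 to 26.3) at 0 h and 85.4 CPM (95% interval 48.3 to 139.7) at 72 h, from 1278 and 2912 bp. Id3 had 374, 292, 176 and 276 CPM, with hepatocyte nuclei at 117, 129, 81.7 and 123.

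**Figure D4:**
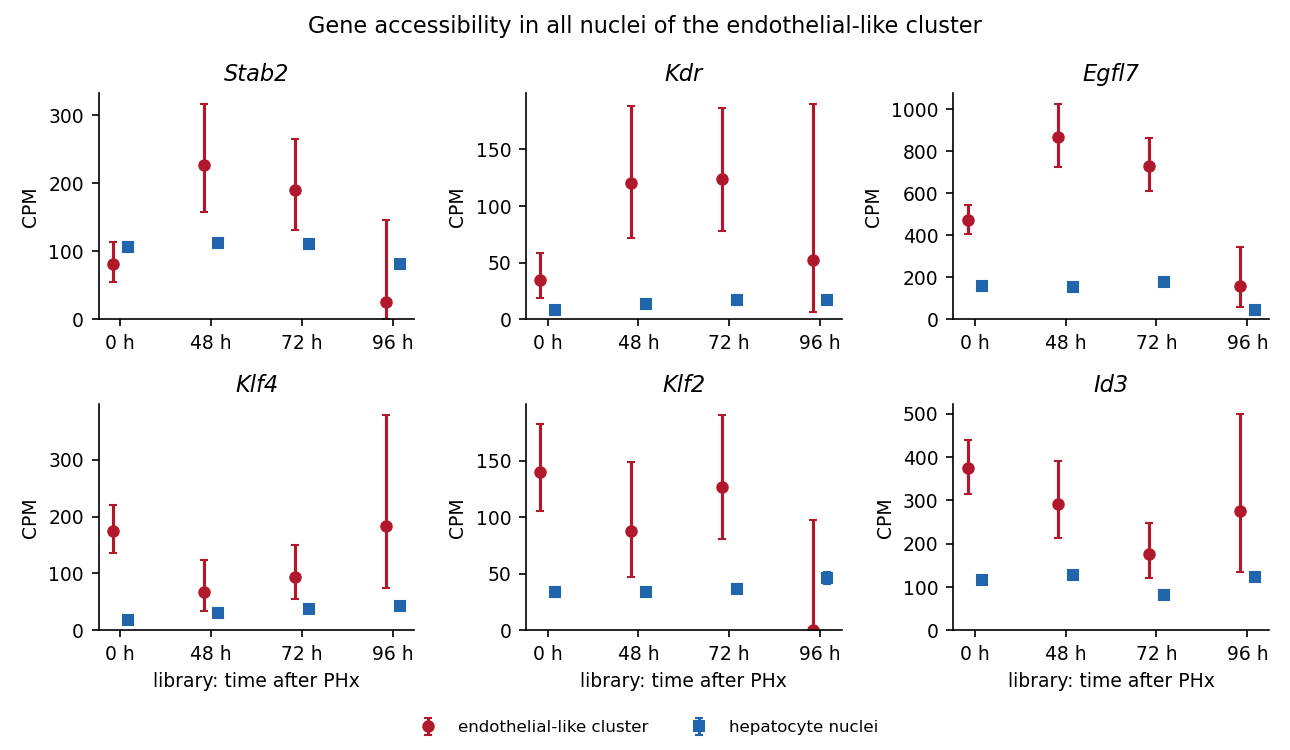
CPM of 6 genes in all nuclei of the endothelial-like cluster (205, 139, 199 and 56 nuclei) and in hepatocyte nuclei by library, with exact Poisson 95% intervals. Each axis starts at 0. Stab2 and Kdr are higher in the cluster at 48 and 72 h than at 0 h, Klf4 is lower at 48 h than at 0 h, and the intervals at 96 h are wide.

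Genes from the lists of other cell types were read in the same way. Ncf1 was higher at 72 h with intervals apart, and had 2.56 and 38.6 CPM at 0 and 72 h, from 1189 and 3393 bp of peaks, and hepatocyte nuclei 3.59 and 11.6. Cd79a, a subunit of the B cell receptor, was not measured at 0 h, where it had no peak, and had 110.4 CPM at 48 h, against 43.9 in hepatocyte nuclei. Ecm1, a matrix protein of the stellate list, had only 2 bp of peaks at 0 h, with no counts, and 33.1 CPM (95% interval 12.1 to 71.9) at 72 h, so no difference is given for it. Apoa2, an apolipoprotein of hepatocytes, was lower, with 105 and 26.0 CPM at 0 and 48 h and intervals apart. The windows of Cd79a, Ecm1 and Apoa2 also cover Arhgef1, Tars2 and Tomm40l. Less hepatocyte nuclei, 1 and 4 of the 8 stellate genes with a peak at both times and 1 and 1 of the 5 immune genes were at least 2-fold higher at 48 and 72 h, beside 7.38% and 8.12% of all genes. The part of these cells in the endothelial values was not tested.

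Some genes had a peak only after PHx. Cdh5 had no peak at 0 h and 32.5 and 124 CPM in the cluster at 48 and 72 h, against 2.97 and 10.6 in hepatocyte nuclei. Wnt2 had 35.7 and 44.1 CPM at 48 and 72 h, against 0.87 and 3.41, and Clec14a 16.2 and 55.1 against 0.722 and 3.37. At 48 and 72 h these genes were more open in the cluster than in hepatocyte nuclei, and no fold against 0 h can be given. Kit had 199 bp of peaks at 0 h with no counts in the cluster, and 33.1 CPM (95% interval 12.1 to 71.9) at 72 h from 1308 bp. The median change of the 7 pericentral genes, less that of hepatocyte nuclei, was 1.09 at 48 h and 0.83 at 72 h on the log2 scale in the cluster, with Wnt2 entered as 0 CPM at 0 h. Over the 6 of these genes with a peak at both times it was 0.87 and 0.27, with Kit at 0 counts at 0 h. At 96 h it was -0.04 over the 7 genes and 0.23 over the 6. In all members the median was 0.93 and 0.60 at 48 and 72 h over the 7 genes and 1.11 and 0.62 over the 6. The 7 periportal genes had a median of -0.18 at 48 h and -0.71 at 72 h in the cluster, and the 5 of them with a peak at both times -0.52 and -0.94. In all members the median over these 5 was -0.68 at 48 h and -1.32 at 72 h. The lengths of the peaks behind these values differed between the libraries, and their part in the result was not tested.

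The cell cycle list of 10 genes summed to 529, 497, 413 and 710.4 CPM in the cluster at 0, 48, 72 and 96 h, with hepatocyte nuclei at 322, 408, 381 and 442. Less hepatocyte nuclei, their median log2 change was -0.16, -0.70 and -1.05 at 48, 72 and 96 h, with 0, 0 and 1 of them at least 2-fold higher and 2, 2 and 5 at least 2-fold lower. Of all genes in the same comparisons 7.38%, 8.12% and 17.7% were at least 2-fold higher and 9.22%, 11.2% and 23.2% at least 2-fold lower. The 1 higher gene was Ccna2, which encodes cyclin A2, with 82.0 CPM (95% interval 56.1 to 116) at 0 h and 263 CPM (95% interval 126 to 484) at 96 h, from 20 counts and from a window that also covers Exosc9 and Bbs7. Ccnd1, the cyclin that opens the cycle, had 142, 94.1, 93.7 and 158 CPM, and Mki67 29.5, 32.5, 38.6 and 78.9. Accessibility of these genes does not measure division.

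Outside the lists, genes past 2-fold between 0 and 48 h in the endothelial-like members, both on their own and less hepatocyte nuclei, were ordered by the difference on their own. The first of them included Egr1, an immediate early factor, with 209 CPM at 0 h and 562 at 48 h, while hepatocyte nuclei had 475 and 438. Sema3f, a semaphorin that repels vessels, had 186 and 549 CPM, while hepatocyte nuclei had 925 and 805. Slc22a23 had 95.3 and 281 CPM, and Dync1h1, the dynein heavy chain, 36.3 and 294 CPM, the latter over peaks of 6647 and 30312 bp. The transcript 6720427I07Rik had 168 CPM at 0 h and 0 counts at 48 h, over peaks of 10947 and 8765 bp, and Gm37238 163 CPM and 0 counts, over 4657 and 4758 bp. A count of 0 allows up to 48.2 CPM here, and hepatocyte nuclei had 59.9 and 41.8 CPM of the former and 44.5 and 30.9 of the latter. Kdm6bos, Gm12795 and Gm37860 were also at 0 counts at 48 h, and their peaks there were shorter than at 0 h. Gm22249 had no peak at 0 h. In all members the genes chosen the same way had peaks of very different length at the 2 times, as Stac3, with 5.58 and 171 CPM over 4647 and 18123 bp, or Kdm6bos, with 241 CPM and 0 counts over 18324 and 1529 bp.

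The share of all members that sat in hepatocyte clusters was 7.91%, 17.3%, 66.5% and 87.5% at 0, 48, 72 and 96 h, and its part in the differences between times in all members was not tested. Prox1, a factor of hepatocytes, had 105, 313, 420.3 and 327 CPM in members at 0, 48, 72 and 96 h and 304, 368, 383 and 347 in hepatocyte nuclei. Pck1 had 126, 88.6, 213 and 655 CPM, and Cyp3a11, a drug-metabolising enzyme, 55.8, 148, 319 and 448. Id3 had 393, 289.6, 106 and 138 CPM in all members, Tgfb1 154, 127, 53.6 and 0 and Clec1b 52.4, 38.4, 4.25 and 0. At 72 h, 73 of 19974 genes (0.365%) were at least 2-fold higher in all members than in hepatocyte nuclei, against 3724 of 19466 in the endothelial-like members.

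Outside all lists, Lfng had the largest ratio over hepatocyte nuclei in the library where each gene's ratio was lowest. It had 43.5, 70.9, 49.3 and 34.5 CPM in all members at 0, 48, 72 and 96 h and 1.22, 6.72, 15.6 and 5.08 in hepatocyte nuclei. Itga9, an integrin subunit, had 158, 127, 146 and 103 CPM against 12.1, 19.8, 67.2 and 16.5, and Hlx 171, 109, 85.1 and 34.5 against 15.8, 29.5, 39.7 and 15.2, where 34.5 CPM at 96 h is 1 fragment. Slc38a10, Anapc15, Selenom, Lrrc8c, Tmem164, Gm13889 and the noncoding genes Gm16271, Gm26513 and AC114539.1 followed. The window of Gm16271 overlaps that of Stab2, a marker of the rule. Mir126a, Mir126b and Gm20532 also ranked there, through the peaks they share with Egfl7. In the endothelial-like members at 0, 48 and 72 h the named leaders were Lfng with 40.8, 131 and 173 CPM, Fbxl7 with 79.4, 85.0 and 136, Prkch, a protein kinase C, with 191, 288 and 377, and Itga9 with 168, 157 and 438. Itga9 was not particular to them: over all libraries it had 224 CPM in the second cluster and 187 in the endothelial-like cluster. It also ranked 4 among members in hepatocyte clusters. Arap3, a regulator of small GTPases in vessels, had 102, 98.1 and 106 CPM against 7.52, 12.9 and 12.0. The others were unnamed transcripts and pseudogenes with AC109619.1 and Gm45778 first, Gm37352, Gm26887 and Gm26532 on chromosome 8 among them.

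The miR-126 locus is shown because it lies inside Egfl7, a marker of the rule, with miR-126a on the strand of that gene and miR-126b on the opposite strand. Mature sequences are from RefSeq on GRCm38.p6, 5′ to 3′, with the seed (bases 2 to 8) in capitals. They lie at chr2:26591402-26591423 on the plus strand for miR-126a-3p, and on the minus strand at chr2:26591363-26591385 for miR-126b-3p and chr2:26591399-26591420 for miR-126b-5p. All 3 are inside the merged region chr2:26585538-26605204. That region had 451, 774, 446 and 431 CPM in all members at the 4 times against 160, 151, 174 and 163 in hepatocyte nuclei, and the 3 seeds differ.
miR-126a-3p: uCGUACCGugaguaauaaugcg
miR-126b-3p: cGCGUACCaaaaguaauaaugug
miR-126b-5p: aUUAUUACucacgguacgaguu

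Single regions gave a finer view than genes. Of 64118 regions with a peak in all 4 libraries, 13 were at least 2-fold higher in all members than in hepatocyte nuclei in each library, and 93 at least 2-fold lower. Regions in Pecam1, Ehd3, Egfl7, Flt1, Ptprb and Kdr were among the 13, and their counts had entered the rule. In the endothelial-like members over 0, 48 and 72 h, 1331 were 2-fold higher in each library, 120 of them 4-fold, and 7929 were 2-fold lower. The region that led for all members lay in an intron of Pecam1, with 99.3, 73.9, 27.2 and 51.7 CPM against 3.48, 3.55, 4.38 and 0.706. For the endothelial-like members an intron region of Sptbn1, a spectrin, led with 68.0, 85.0 and 128 CPM against 0.378, 1.25 and 1.38. A region 13356 bp from the start of Sema3f had 95.3, 105 and 151 CPM against 4.42, 5.71 and 5.67. An intron region of Bicd2, a motor adaptor, had 104, 85.0 and 75.4 CPM against 3.02, 2.68 and 3.32. A region 6284 bp from the start of Adgre5, which encodes the adhesion receptor CD97, had 38.6, 58.9 and 75.4 CPM against 0.415, 3.005 and 1.94. Regions at the starts of Ptpn14, Arap3, Fbxl7 and Kdr and an intron region of Ets1 were also among the first 15.

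The central 300 bases of these 5 regions are shown as examples of chromatin open in members. The Pecam1 region led for all members and its counts had entered the rule, and the others ranked 1, 4, 6 and 9 for the endothelial-like members, with no annotated exon in their central 300 bases. They are read from GRCm38 on the plus strand, 5′ to 3′. Capitals mark the letters AGGAAG or their reverse complement CTTCCT, the core of the motif that ETS factors bind. The windows are chr11:106674929-106675228 (Pecam1), chr11:30161205-30161504 (Sptbn1), chr9:107724657-107724956 (near Sema3f), chr13:49371579-49371878 (Bicd2) and chr8:83748223-83748522 (near Adgre5). The letters occurred 0, 2, 1, 2 and 1 times in them, and the Sptbn1 window also held the GATA letters AGATAA once.
Pecam1 intron: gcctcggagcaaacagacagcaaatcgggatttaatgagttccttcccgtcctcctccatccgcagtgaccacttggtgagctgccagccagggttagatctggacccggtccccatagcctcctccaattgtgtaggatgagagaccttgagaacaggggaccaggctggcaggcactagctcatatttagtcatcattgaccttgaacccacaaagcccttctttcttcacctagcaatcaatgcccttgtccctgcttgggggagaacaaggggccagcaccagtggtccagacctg
Sptbn1 intron: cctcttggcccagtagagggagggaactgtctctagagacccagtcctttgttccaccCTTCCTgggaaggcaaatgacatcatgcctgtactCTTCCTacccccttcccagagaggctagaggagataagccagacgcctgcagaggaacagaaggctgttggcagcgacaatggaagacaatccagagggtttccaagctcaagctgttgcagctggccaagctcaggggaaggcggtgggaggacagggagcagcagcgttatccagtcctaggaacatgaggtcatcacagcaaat
Near Sema3f: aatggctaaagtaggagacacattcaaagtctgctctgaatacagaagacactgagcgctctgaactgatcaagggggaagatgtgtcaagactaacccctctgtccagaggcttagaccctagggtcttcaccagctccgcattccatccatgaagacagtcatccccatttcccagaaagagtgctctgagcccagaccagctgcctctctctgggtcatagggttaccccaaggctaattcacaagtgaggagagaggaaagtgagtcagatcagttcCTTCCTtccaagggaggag
Bicd2 intron: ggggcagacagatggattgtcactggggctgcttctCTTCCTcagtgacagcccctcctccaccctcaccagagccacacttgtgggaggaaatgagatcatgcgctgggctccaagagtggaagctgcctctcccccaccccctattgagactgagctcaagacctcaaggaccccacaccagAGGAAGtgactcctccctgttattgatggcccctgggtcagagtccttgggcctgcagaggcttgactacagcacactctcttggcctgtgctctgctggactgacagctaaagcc
Near Adgre5: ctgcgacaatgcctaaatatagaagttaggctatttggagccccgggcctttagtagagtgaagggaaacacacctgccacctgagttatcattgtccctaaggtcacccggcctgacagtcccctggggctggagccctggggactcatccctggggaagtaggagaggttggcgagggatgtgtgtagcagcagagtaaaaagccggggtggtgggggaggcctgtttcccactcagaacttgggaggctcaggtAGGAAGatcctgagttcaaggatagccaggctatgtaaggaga

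Over all regions of this kind the ETS letters were more frequent where the members were open. Motif letters were searched on both strands in the central 300 bases of regions over 1000 bp from a gene start. AGGAAG was present in 58.1% of 74 regions that were 4-fold higher in the endothelial-like members, in 48.4% of 754 that were 2-fold higher, in 32.7% of all 52100 and in 31.0% of 7306 that were 2-fold lower. The longer ETS letters ACAGGAAG were in 5.41%, 5.84%, 3.24% and 2.46% of these groups, so the 4-fold regions were not above the 2-fold ones. The GATA letters AGATAA were in 20.3%, 12.9%, 15.5% and 16.3%, with no steady order, and the SOX letters ACAATGG in 6.76%, 4.64%, 3.83% and 3.57%. TGANTCA, for AP-1, was in 10.8%, 11.0%, 10.2% and 10.3%, nearly the same in the 4 groups. The HNF4A letters CAAAGTCCA, for the main hepatocyte factor, were in 0, 0.398%, 1.26% and 1.85%. TGTTTAC, for FOXA, was in 8.11%, 4.64%, 6.07% and 7.39%, and TTGCNCAA, for CEBP, in 8.11%, 4.64%, 5.06% and 5.78%. Mean GC content also differed, at 54.6%, 52.5%, 47.2% and 45.9%, and its part in the shares was not tested. No test was made of these shares, and a match is a description of the letters, not of a bound site.

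**Figure D5:**
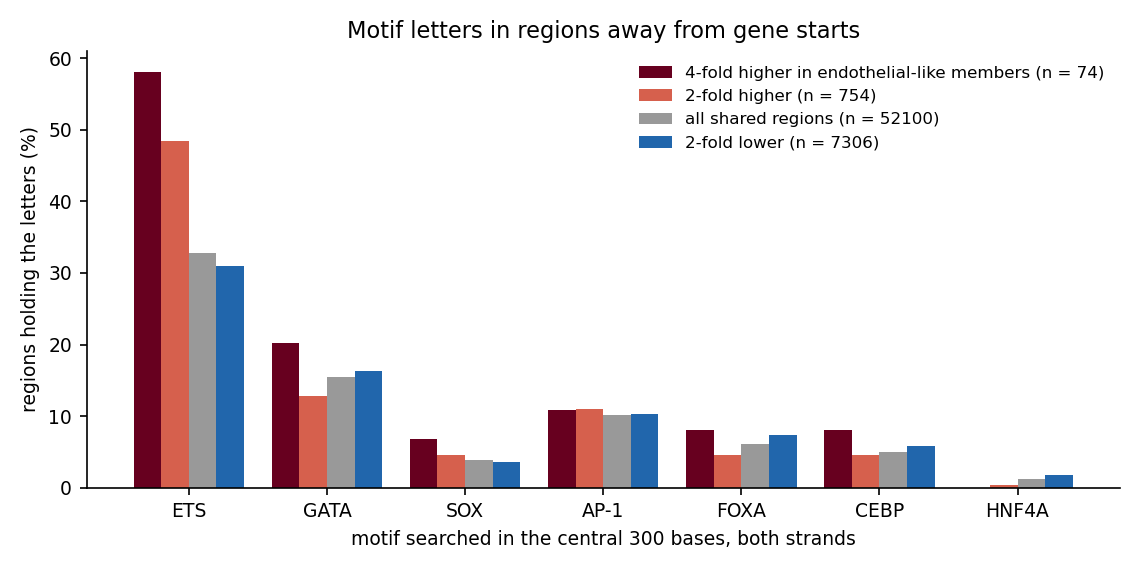
Share of regions away from gene starts whose central 300 bases hold the letters of a motif on either strand. Bars compare regions 4-fold higher (n = 74) and 2-fold higher (n = 754) in endothelial-like members, all regions (n = 52100) and regions 2-fold lower (n = 7306). The ETS letters step down from 58.1% to 48.4%, 32.7% and 31.0%, and the AP-1 letters stay between 10.2% and 11.0%.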

How the data were processed

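Single-cell ATAC-Seq was performed on nuclei of hepatocyte preparations with the Chromium Single Cell ATAC v1 kit, 1 library from mice without surgery and 1 from each of 48, 72 and 96 h. Each deposited table holds counts per peak and barcode. Per the labels' processing notes the authors used Cell Ranger ATAC 1.1.0 and mm10, and they called peaks in each library separately, so that peak lengths differ between libraries. The deposited counts are transposase cut ends in peaks, mostly 2 per fragment, with no further normalization.

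Gene counts were sums over peaks that overlap a GENCODE gene body plus 2 kb upstream. Counts were summed over the nuclei of a class and given as CPM of the class total, with exact Poisson intervals on counts divided by 2. Log2 ratios were taken within a library with a pseudocount of 5 CPM. Shares over all genes are of genes with a mean of at least 10 CPM, while counts and medians over a list take in every gene of it. Clusters came from latent semantic indexing (30 components, 30 neighbours) and Leiden clustering at a resolution of 0.5, on 62772 of 64118 regions that had a peak in all libraries. No doublet caller was run. Depth ranged from 15809769 to 136949314 counts per library, and intervals cover counting error only.

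The members and the gene lists were chosen with earlier results of these data known. Named genes were those of the lists, the 15 others with the largest ratio in their lowest library, and for time the list genes past 2-fold with intervals apart and 5 others in each direction at 48 h with at least 40 counts. The named leading genes of the endothelial-like cluster, its members' ratios and the comparisons in all its nuclei were added after the counts were seen, as was the limit to genes with a peak at both times in counts over time. No test was run, because each time point had 1 library. The interval and ratio code was tested on simulated data. Alternatives were other thresholds for nuclei, pseudocount, filter, scaling, peak length and clusters. Software was Python 3.11.15, numpy 2.4.6, scipy 1.17.1, pandas 2.3.3, scikit-learn 1.9.0, leidenalg 0.10.2, igraph 0.11.9 and matplotlib 3.10.9.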

Additional observations from a re-analysis of the deposited data

How the results depend on the processing

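Of 150 values under other settings, 104 moved by less than their counting interval, or by under 1.5 times for counts of genes, and 46 moved by more. Endothelial genes against immune nuclei at 72 h changed sign, from -0.14 in all members to 0.88 in the endothelial-like ones. Under median scaling the 96 h pericentral median went from -0.04 to 0.172 and the cell cycle median from -0.02 to 0.192. The share of members (3.50%, 2.08%, 5.55% and 0.496% at 0, 48, 72 and 96 h) depended on the rule. It was 2.63%, 0.92% and 4.56% at 0, 48 and 72 h with a minimum of 3000 counts and 1.73%, 0.899%, 1.67% and 0.031% with at least 8 marker counts. With a hepatocyte limit of 0.5% it was 50.4%, 21.2%, 26.7% and 5.71%, and with nuclei thinned to 1000 counts 0.704%, 0.668%, 0.893% and 0.031%. Regions with a peak in every library gave 1.65% at 48 h and 3.65% at 72 h. The settings in the next 4 sentences were chosen after seeing the data. Without shared barcodes the share at 0 h was 4.32%, and members in the endothelial-like cluster alone gave 2.49%, 1.49%, 1.64% and 0.062%. In those members the median log2 ratio of sinusoidal genes was 1.5, 1.65 and 1.1 at 0, 48 and 72 h (0.92, 0.90 and 0.19 in all members), and 3978, 4501 and 3724 genes were at least 2-fold higher (2601, 2234 and 73). Their median for the 52 endothelial genes was 1.04, 1.32 and 0.88 against immune nuclei (0.62, 0.69 and -0.14), and 3.03 at 48 h and 1.47 at 72 h against stellate nuclei (2.18 and 0.56). Their pericentral median at 72 h was 1.16 (0.60), the cell cycle median at 96 h over all nuclei of that cluster was -1.05 (-0.02), and 1331 regions were 2-fold higher over 0, 48 and 72 h (13 in all members over the 4 libraries). A pseudocount of 1 CPM gave -3.15 for sinusoidal genes at 96 h (-1.37), 218 genes at 72 h, 4.23 against stellate nuclei at 48 h, 1.68 for pericentral genes at 48 h (0.93) and 59 regions. Scaling by the median ratio, which shifts all members' values by 0.32, 0.17, 0.06 and 0.14 on the log2 scale, gave 1091 genes at 0 h and 1426 at 48 h. Regions of nearly equal peak length gave a pericentral median of 0 at 48 h and 0 at 72 h and a cell cycle median of -0.345 at 72 h (-0.73), but genes without such a region count as 0 there, so these medians say nothing of the change. The causes of these moves were not tested. At 96 h the 16 members, and in the endothelial-like cluster 56 nuclei with 76012 counts, limit what can be seen. No paired analysis was possible because each time point had 1 library and no result comes from a test.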
